A study of Mus musculus with 6 samples.

Results

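The nuclear genes of the mitochondrial respiratory chain and of ATP synthase were described in mouse liver by RNA-seq. They were taken from the deposited gene table by name, as the rows whose symbol starts with *Nduf*, *Uqcr* or *Atp5*, starts with *Cox* followed by a digit from 4 to 8 and a letter, or is *Sdha*, *Sdhb*, *Sdhc* or *Sdhd*. The rule gave 92 of 24421 genes. Of these, 81 encode structural subunits and 11 encode assembly factors or other proteins that were not counted as subunits although their names match. Complex I held 43 of the 92 genes, complex II 4, complex III 8, complex IV 20 and complex V, the ATP synthase, 17. *Ndufa4*, named for complex I, encodes a subunit of complex IV and was placed there. *Atp5sl* and *Atp5s*, which are no subunits, were counted with complex V by name alone.

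The livers came from 3 WT and 3 *Pai-1*+/- mice, labelled as C57BL/6, 21 weeks old and fed ad libitum. The study describes them as C57BL/6 J males on a standard chow diet with WT littermates as controls, and it gives an age that is slightly lower than the label's. The heterozygotes descended from a cross of *Pai-1*-/- with WT mice, so they carried 1 null allele of the gene for plasminogen activator inhibitor-1, a serpin that blocks the activation of plasminogen, in every cell of the body. The study asked how lower PAI-1 changes hepatic gene expression. That comparison is not given for these genes, because the 6 columns of counts per animal carry numbers that no label ties to a genotype. What follows describes levels in these livers from the authors' mean normalized count, which averages all 6 libraries of both genotypes and so has no SD and no n.

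The respiratory chain sits in the inner mitochondrial membrane. Complex I takes electrons from NADH and complex II takes them from succinate, complex III passes them from ubiquinol to cytochrome c, and complex IV passes them to oxygen. Complexes I, III and IV pump protons, and complex V lets protons flow back to make ATP. In the liver this chain burns the NADH and FADH2 of fatty acid oxidation and powers gluconeogenesis and urea synthesis. Part of complexes I, III, IV and V is encoded in mitochondrial DNA, and those genes are not in the deposited table, so complexes are seen here only through their nuclear subunits.

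Levels were compared between genes only per length, as the mean normalized count divided by the length in kilobases of the transcript that the GENCODE annotation pairs with a curated RefSeq record. A percentile places a gene among the 17472 genes that had a length and a mean above 0. The 81 structural subunits together took 1.07% of the summed mean normalized count of all genes. Their median level was 2890 per kilobase and their median percentile was 96.2, beside a median of 146 per kilobase over the 12891 genes with a mean normalized count above 10. In bulk liver, fewer cells of a type and less RNA per cell cannot be told apart. The 6 hepatocyte markers, among them *Alb*, the gene for serum albumin, were at 23793 per kilobase or more. The 4 skeletal muscle markers were at 2.45 or less, and of the brown fat markers the uncoupling protein gene *Ucp1* was at 0.106 and the lipid droplet gene *Cidea* at 257. The 3 male germ cell markers were listed at 0, from which nothing is read, since *Rpl26*, a ribosomal protein gene that every cell uses, was listed at 0 as well. Kupffer cell markers lay between 105 and 735 per kilobase, and endothelial markers between 135 and 170.

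The 5 complexes differed in their level per gene. Median levels of the structural subunits were 2218 per kilobase for complex I, 5034 for complex II, 4970 for complex III, 3668 for complex IV and 5393 for complex V. Complex I was thus the lowest, at below the median of any other complex. The place of complex IV depended on its tissue isoforms, since leaving out its 5 subunits with a mean normalized count of 10 or less raised its median to 6343. In the summed mean normalized count, complex V took 0.417% of all genes, more than the 0.260% of complex I with its 36 structural genes. Complex IV took 0.158%, complex III 0.125% and complex II 0.113%.

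**Figure D1:**
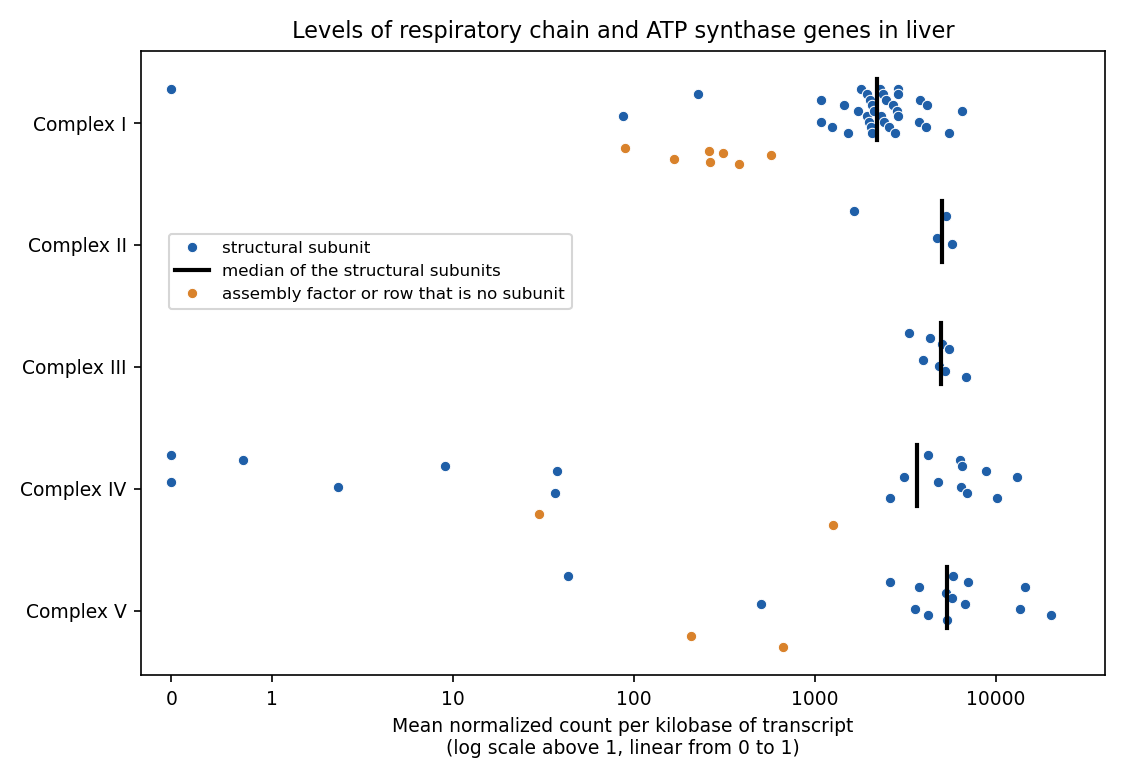
Each point is 1 gene, placed by its mean normalized count per kilobase of transcript on a log scale above 1, in 1 row per complex, with structural subunits in blue, assembly factors and other matched rows in orange, and a black bar at the median of the structural subunits. Complex I subunits cluster around 2218 per kilobase, below the medians of the other complexes, and complexes I, IV and V have subunits far below the rest, with *Ndufs5*, *Cox7b2* and *Cox8c* at 0.

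Complex I has 7 nuclear core subunits that carry the flavin and the iron-sulfur clusters, and none of them was among the low genes. *Ndufs1*, whose product is the largest subunit and holds iron-sulfur clusters, was the lowest of them at 1736 per kilobase. *Ndufv1*, the NADH-binding subunit, was at 2881, *Ndufv2* at 2083, *Ndufs7* at 2062, *Ndufs8* at 1988.5 and *Ndufs3* at 1947. The core had a median of 2062, and the 29 accessory subunits had one of 2320 with a wider spread. *Ndufb9* was highest at 6504 per kilobase, followed by *Ndufa6* at 5548. Both encode accessory subunits with the LYR motif, a short sequence that binds the acyl carrier protein. The acyl carrier protein itself, encoded by *Ndufab1*, was at only 86.6 per kilobase of a transcript of 3479 bases, or 644 per kilobase of its coding part. *Ndufb4*, an accessory subunit of the membrane arm, was at 227, and *Ndufs5*, an accessory subunit of the intermembrane space side, was listed at 0.

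The 7 assembly factors of complex I matched by name, *Ndufaf1* to *Ndufaf7*, build the complex but leave it once it is made. They had a median of 263 per kilobase, with *Ndufaf1* highest at 571 and *Ndufaf5* lowest at 89.8. The highest of them was below 33 of the 36 structural subunits.

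Complex II is both a chain enzyme and the succinate dehydrogenase of the tricarboxylic acid cycle, and all of its subunits are nuclear. *Sdha*, the flavoprotein that oxidises succinate, was at 5745 per kilobase with a mean normalized count of 16659. *Sdhb*, the iron-sulfur subunit, was at 4759. Of the membrane anchors, *Sdhd* was at 5309 and *Sdhc* at 1643 per kilobase. Their mean normalized counts, 6535 and 5211, lay closer together, and the transcript used for *Sdhc* is 3171 bases long beside 1231 for *Sdhd*.

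Complex III was the most even of the complexes with over 4 genes. Its 8 structural genes ran from 3299 per kilobase for *Uqcrq* to 6834 for *Uqcrh*, the hinge protein that helps cytochrome c to bind. *Uqcr10* was at 5486 and *Uqcrb* at 5268. The large core proteins *Uqcrc1* and *Uqcrc2* were at 4353 and 3961, and *Uqcrfs1*, the Rieske iron-sulfur protein that takes an electron from ubiquinol, was at 4881. *Cyc1*, the cytochrome c1 subunit that the naming rule leaves out, was at 3305.

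Complex IV has a catalytic core encoded in mitochondria, and its nuclear subunits surround that core. *Cox4i1*, the largest of them, was at 13120 per kilobase, the fourth highest of all 92 genes. *Ndufa4* was at 10158 and *Cox6a1* at 8804. *Cox8a*, *Cox6b1*, *Cox5a* and *Cox6c* lay between 6343 and 6920. *Cox5b* was the lowest of those that have no second isoform, at 2604. Of the rows matched by name that are no subunit, *Cox7a2l*, named as an assembly factor of supercomplexes, was at 1266, and *Ndufa4l2*, a hypoxia-induced relative of *Ndufa4*, was at 29.8.

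Several complex IV subunits are encoded by a pair or a trio of genes of which 1 is general and the others are used in heart and skeletal muscle, lung or testis. In the 5 families whose other form had a value above 0, a single gene took nearly all of the summed level. *Cox4i1* took 99.98% of its family, and *Cox4i2*, known from lung and for its response to oxygen, was at 2.32 per kilobase. *Cox6a1* took 99.99%, with the striated muscle form *Cox6a2* at 0.711, from a mean normalized count of 0.484. *Cox8a* took 99.87%, with the striated muscle form *Cox8b* at 9.06 and *Cox8c* listed at 0. *Cox7b* was at 4219, and *Cox7b2* was listed at 0. No share is given for *Cox7b*, and nothing is read from the listed zeros of *Cox7b2* and *Cox8c*. The low forms with the highest values were *Cox6b2* at 37.4 per kilobase, which left 99.43% to *Cox6b1*, and *Cox7a1* at 36.7, which left 99.24% to *Cox7a2*. Both had mean normalized counts just above 10, at 15.8 and 14.4. The coding sequences of the low forms had 56.4% to 69.6% of their aligned bases in common with the main form, and none of the low forms shared a 75-base stretch with another gene.

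**Figure D2:**
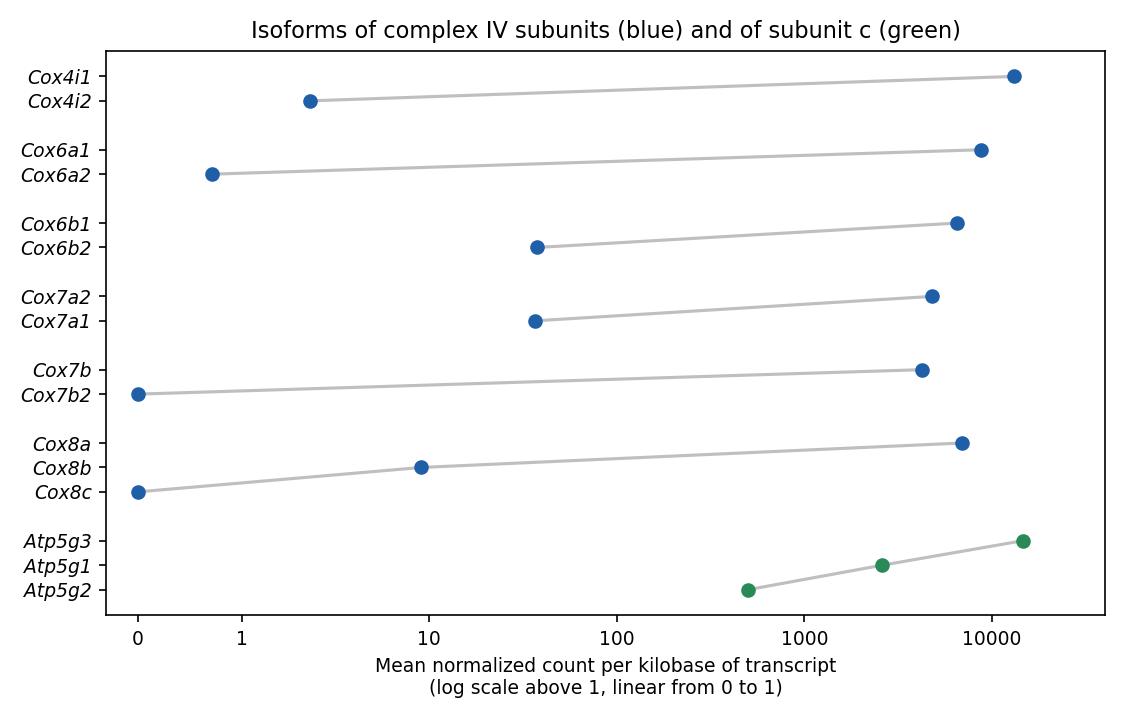
Points give the mean normalized count per kilobase, on a log scale above 1, of each isoform in the 6 families of complex IV subunits (blue) and of ATP synthase subunit c (green), with lines joining a family. The lower isoforms of complex IV lie between 0 and 37.4 per kilobase while the main forms lie between 4219 and 13120, and the 3 genes of subunit c lie closer together, from 502 to 14577.

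ATP synthase held the highest member. *Atp5b*, the catalytic beta subunit, was at 20175 per kilobase and *Atp5a1*, the alpha subunit, at 13550. Each F1 head is a ring of alternating alpha and beta subunits around a single gamma subunit, and the genes of the single-copy subunits were lower. *Atp5c1* (gamma) was at 6720, *Atp5d* (delta) at 5770 and *Atp5e* (epsilon) at 5393. The peripheral stalk, which holds the head still while the rotor turns, ran from 4210 for *Atp5o* to 7001 for *Atp5h*. The other membrane subunits were *Atp5k* at 3786, *Atp5j2* at 3568 and *Atp5l*, subunit g, at 43.4 per kilobase from a mean normalized count of 23.6. The matched rows that are no subunit, *Atp5sl* and *Atp5s*, were at 669 and 208.

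Subunit c forms the rotating ring and comes from 3 genes that are known to encode the same mature protein behind different import sequences. *Atp5g3* took 82.5% of their summed level at 14577 per kilobase, *Atp5g1* took 14.7% at 2597 and *Atp5g2* took 2.84% at 502. The share of *Atp5g1* rested on the length used, since its longest transcript has 4715 bases beside the 596 used here, and with that length its share was 2.16%. The last 225 coding bases before the stop codon, which hold the mature protein, are shown because they let the 3 genes be compared base by base. They do not place every read, since 100% of the coding 75-base stretches of *Atp5g2* and 92.8% of those of *Atp5g1* also occur at other loci, so the shares of both are uncertain. Capitals mark bases that differ from *Atp5g3*, and sequences are on the coding strand of GRCm38 with introns removed. *Atp5g3* lies on chromosome 2, with this part between 73908596 and 73909296 on the minus strand, *Atp5g1* on chromosome 11 between 96073107 and 96073635 on the minus strand, and *Atp5g2* on chromosome 15 between 102663017 and 102665166 on the minus strand.
Atp5g3: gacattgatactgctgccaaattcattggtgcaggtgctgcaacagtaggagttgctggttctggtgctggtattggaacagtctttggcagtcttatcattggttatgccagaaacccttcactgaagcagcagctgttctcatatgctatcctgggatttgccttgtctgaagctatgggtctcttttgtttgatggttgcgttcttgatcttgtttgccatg
Atp5g1: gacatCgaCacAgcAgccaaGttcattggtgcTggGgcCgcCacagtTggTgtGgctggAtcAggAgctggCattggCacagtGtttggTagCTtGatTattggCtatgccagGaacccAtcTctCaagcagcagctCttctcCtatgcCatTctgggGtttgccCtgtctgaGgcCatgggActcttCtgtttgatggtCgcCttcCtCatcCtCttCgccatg
Atp5g2: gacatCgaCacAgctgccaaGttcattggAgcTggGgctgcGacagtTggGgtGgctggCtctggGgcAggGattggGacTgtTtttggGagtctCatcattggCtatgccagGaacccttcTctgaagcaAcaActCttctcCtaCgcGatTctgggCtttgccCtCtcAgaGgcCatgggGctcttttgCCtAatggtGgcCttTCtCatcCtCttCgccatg
Over these bases *Atp5g1* differed from *Atp5g3* at 45 positions, 41 of them at the last base of a codon, and *Atp5g2* differed at 48, of which 44 were at the last base. *Atp5g1* and *Atp5g2* differed from each other at 34. No 75-base stretch of the *Atp5g3* transcript was found in any other gene.

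The reads were 75 bases long, and a read from a stretch that also occurs at another locus cannot be placed by its sequence. Many of these genes have processed pseudogenes, which are intronless copies made from their mRNA. Of the 81 structural subunits, 35 (43.2%) had at least one 75-base stretch in a transcript of another annotated gene, beside 37.9% of the 12886 genes with a mean above 10. Over 30% of the transcript was so shared in 10 subunits (12.3%), beside 6.70% of those genes. These comparisons are not on equal terms, because both measures depend on transcript length. The median transcript had 727 bases in the subunits, beside 2908 in the protein-coding genes with a mean above 10. Counting only loci that do not overlap the gene itself, 24 subunits (29.6%) shared a stretch. That share was not computed over all genes, so it has no background beside it.

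Apart from the lower isoforms of complex IV, the 5 lowest structural subunits of 74 were *Ndufs5*, *Atp5l*, *Ndufab1*, *Ndufb4* and *Atp5g2*, at 0 to 502 per kilobase, and every one shared coding stretches with another locus at this length. This was seen after the levels were known. With the longest transcript as the length, *Ndufb2*, with no stretch at another locus, took the place of *Atp5g2* at 203 per kilobase, and with the mean transcript length *Ndufb7*, also with none, did so at 525. For *Atp5l*, *Ndufb4* and *Atp5g2* it was 100% of the coding 75-base stretches, for *Ndufab1* 93.4% and for *Ndufs5* 59.4%. The 50 subunits of the 74 with no such stretch in any part of their transcript were at 1083 per kilobase or above, with a median of 3793. That lowest value was 203 with the longest transcript, 525 with the mean transcript length and 1408 with the coding length. Sharing did not always go with a low level. *Cox7c*, with 100% of its coding stretches shared, was at 3117, *Atp5g1*, with 92.8%, was at 2597, and *Atp5h*, with 54.3%, was at 7001. How reads with several places were counted is not given in the sources used here, and the part of sharing in these levels was not tested.

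**Figure D3:**
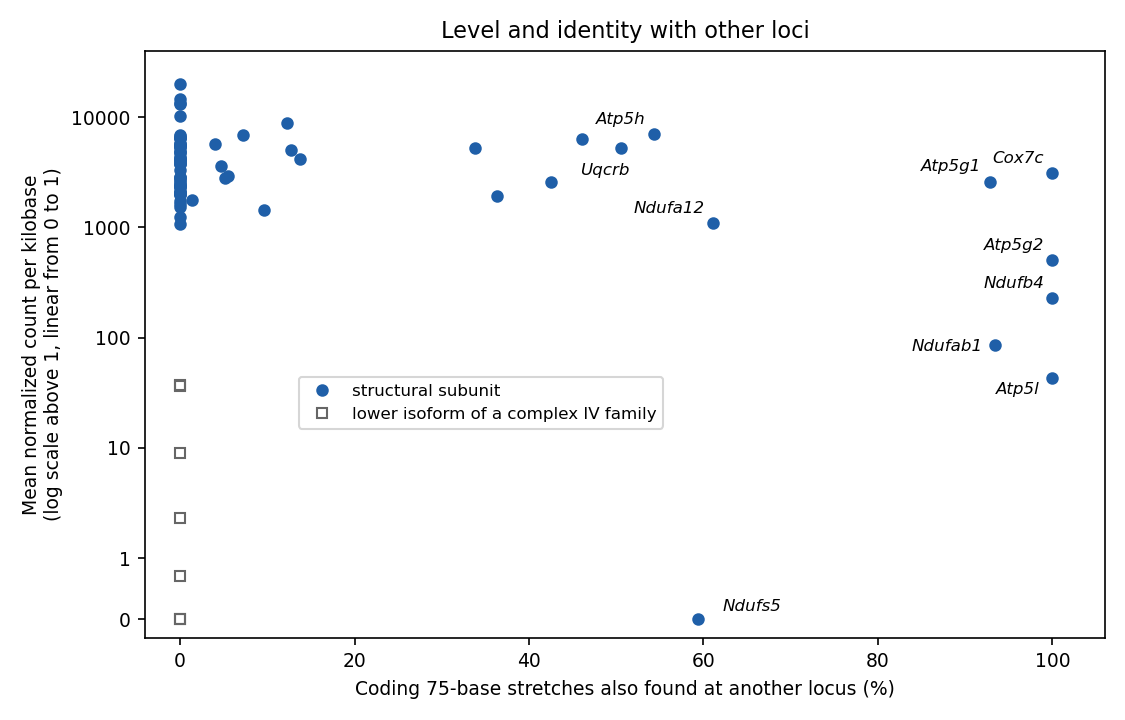
For each structural subunit the share of its coding 75-base stretches that also occur at another locus (horizontal axis, percent) is set against its mean normalized count per kilobase (vertical axis, log scale above 1), with the lower isoforms of complex IV as open squares. With the RefSeq-paired length used here, subunits with no stretch shared at another locus lie at 1083 or above apart from the open squares (203 or above with the longest transcript), while *Ndufs5*, *Atp5l*, *Ndufab1*, *Ndufb4* and *Atp5g2* lie at 502 or below, and *Cox7c*, *Atp5g1* and *Atp5h* combine sharing with levels of 2597 or more.

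The first coding bases of *Ndufs5*, *Atp5l* and *Ndufb4* show the identity. Those of *Ndufab1*, which was at a lower level than *Ndufb4*, and of *Atp5g2* are not shown. Each stretch begins at the start codon, and every base of it occurs unchanged in the pseudogene. *Ndufs5* lies on chromosome 4, and its stretch at chr4:123716005-123716079 on the minus strand is also in *BC002163*, a processed pseudogene on chromosome 16 from 42955631 to 42955949. *Atp5l* lies on chromosome 9 on the minus strand, and its stretch, which an intron splits between 44914789 and 44920661, is also in *Gm10221* on chromosome 5 from 24581554 to 24581862 and in *Atp5l2-ps*. *Ndufb4* lies on chromosome 16, and its stretch at chr16:37654285-37654359 on the minus strand is also in *Ndufb4c* on chromosome 15 from 73809507 to 73809896. Coordinates are those of GRCm38.
Ndufs5: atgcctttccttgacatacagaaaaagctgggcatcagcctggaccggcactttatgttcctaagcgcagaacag
Atp5l: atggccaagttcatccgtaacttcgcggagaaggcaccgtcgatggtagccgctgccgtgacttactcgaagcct
Ndufb4: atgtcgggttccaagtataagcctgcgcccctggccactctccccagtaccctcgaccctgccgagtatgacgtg
*BC002163* had a row of its own in the deposited table, with a mean normalized count of 25.9, and *Ndufs5* had 0 there although 305 of the 451 stretches of its transcript were found in no other gene. *Atp5l* had 113 of 470 stretches to itself, and *Ndufb4* 581 of 897. Of the transcript of *Rpl26*, also listed at 0, 57.5% was shared, and nothing is read from the 0 of *Ndufs5* about its expression.

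The structural subunits had features in common that their names do not give. Their median transcript was 727 bases and 4 exons long, with a median coding part of 411 bases, beside 2908 bases, 9 exons and 1398 coding bases over the 12478 protein-coding genes with a mean above 10. They were spread over 19 chromosomes, with 3 on the X. In 18 of the 81 (22.2%) another protein-coding gene started on the opposite strand within 1000 bases before the start of the subunit's gene, beside 9.91% of the protein-coding genes.

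Nuclear respiratory genes are known targets of GABPA (an ETS factor, also named NRF2), of NRF1 and of YY1. Their core letters were searched on both strands of the RefSeq promoter windows of GRCm38.p6, from 250 bases before to 50 bases from the annotated start. The letters were CCGGAAGT for ETS factors, GCATGCGC for NRF1, AAGATGGC for YY1 and CCAAT for the CCAAT box. The NRF1 letters read nearly alike on both strands, so that 1 place can match on both, 2 bases apart. A window was at hand for 67 of the 81 structural subunits. NRF1 letters were in 10 of the 67 (14.9%), beside 3.05% of the 27025 genes with a window and 5.69% of the 10345 among them with a mean normalized count above 10. YY1 letters were in 10 (14.9%), beside 3.19% and 5.17%. ETS letters were in 5 (7.46%), beside 4.31% and 8.84%, which is below the share of the measured genes. CCAAT was in 29 (43.3%), beside 41.1% and 42.7%. At least one of the ETS, NRF1 and YY1 letters was in 24 of the 67 (35.8%), beside 18.3% of the measured genes. By complex, YY1 letters were in 7 of the 32 complex I subunits with a window (21.9%) and 3 of the 14 of complex V (21.4%). None of the 3 in complex II, 5 in complex III and 13 in complex IV held them. With 5.17% in the measured genes, few matches would be expected in so few windows, so nothing is read from these zeros. NRF1 letters were in 3 subunits of complex I, 1 of complex II, 2 of complex III, 1 of complex IV and 3 of complex V. ETS letters were in 2 of the 5 of complex III, 1 each in complexes I, IV and V, and 0 in complex II.

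Promoter stretches of 4 subunits are shown, from 170 bases before the annotated start through the first 30 transcribed bases, on the strand of the gene, with every match of the 4 motifs in capitals. *Uqcr11* (chr10:80406792-80406991, minus strand) was the subunit with both ETS and NRF1 letters. *Atp5h* (chr11:115419890-115420089, minus strand), *Cox6a1* (chr5:115348929-115349128, minus strand) and *Atp5j* (chr16:84834947-84835146, minus strand) had the highest levels among the subunits with ETS, NRF1 and YY1 letters in this stretch.
Uqcr11: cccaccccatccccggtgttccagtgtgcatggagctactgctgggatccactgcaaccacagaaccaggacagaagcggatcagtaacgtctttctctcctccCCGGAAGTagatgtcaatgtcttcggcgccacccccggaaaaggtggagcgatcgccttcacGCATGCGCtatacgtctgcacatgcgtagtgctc
Atp5h: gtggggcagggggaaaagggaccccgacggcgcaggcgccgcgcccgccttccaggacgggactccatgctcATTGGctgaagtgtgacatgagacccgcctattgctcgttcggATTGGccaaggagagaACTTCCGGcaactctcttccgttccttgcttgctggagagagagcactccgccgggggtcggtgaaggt
Cox6a1: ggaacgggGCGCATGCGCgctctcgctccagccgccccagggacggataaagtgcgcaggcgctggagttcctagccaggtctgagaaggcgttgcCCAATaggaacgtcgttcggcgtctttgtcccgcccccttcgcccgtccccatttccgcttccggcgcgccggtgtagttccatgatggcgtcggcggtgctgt
Atp5j: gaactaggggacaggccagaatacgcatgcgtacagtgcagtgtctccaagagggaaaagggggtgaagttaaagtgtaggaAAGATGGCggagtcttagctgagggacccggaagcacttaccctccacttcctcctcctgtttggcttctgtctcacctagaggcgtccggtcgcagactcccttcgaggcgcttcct
In *Uqcr11* the ETS letters start 66 bases and the NRF1 letters 4 bases before the first transcribed base. In *Cox6a1* the capitals nearest the start of the stretch are NRF1 letters on both strands.

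The YY1 letters had a place of their own. Of the 10 matches, 9 started between 10 bases before and 40 bases after the first transcribed base. In the measured genes 313 of 580 matches (54.0%) did so. Of the 10, 9 were on the strand of the gene, beside 397 of the 580 in the measured genes. The letters contain ATG, and after their positions were seen they were looked for at the start codon, with 3 bases before it and 5 from its A on. They stood there in 15 of the 81 structural subunits (18.5%), beside 434 of 12266 protein-coding genes with a mean above 10 (3.54%). This share is not separate from the one in promoters. The promoter matches of *Ndufa3*, *Ndufa9*, *Ndufb8*, *Ndufc1*, *Ndufs4*, *Ndufs6*, *Ndufs7* and *Atp5j2* are the same bases as their start codon matches. Only those of *Atp5j* and *Atp5f1* lie elsewhere. Complex I had the start codon letters in 10 of 36 subunits (27.8%) and complex V in 3 of 15 (20%). Complex II had them in 1 of 4 (25%), complex III in 1 of 8 (12.5%) and complex IV in none of 18. With 3.54% in the measured genes, few would be expected among 18 genes, so nothing is read from their absence in complex IV. Before the start codon, all structural subunits had a median of 96 bases, beside 162 in the measured protein-coding genes. In the 15 transcripts it was 39 bases, beside 77 in the measured genes with the same letters. Of the 15, 13 are shown from 12 bases before the start codon through 15 bases from its A, with the 8 letters in capitals.
Ndufa3: gccaagaacAAGATGGCcgggagaatc
Ndufa6: ttcctcggcAAGATGGCggccgcggcc
Ndufa9: ttgtgggagAAGATGGCggccgccgtc
Ndufb8: gagaaggtgAAGATGGCtgccgcccgg
Ndufc1: ctgcggaacAAGATGGCgccgtccgta
Ndufs4: gcctacaggAAGATGGCggcggtctca
Ndufs6: gtcaccggcAAGATGGCggcggtgctg
Ndufs7: gccgaggccAAGATGGCggcgctggcg
Sdhc: ccggaactcAAGATGGCtgcgttcttg
Uqcrc1: ggaagttagAAGATGGCggcgtccgca
Atp5j2: caggacttcAAGATGGCgtcactcgtg
Atp5h: aagtatcccAAGATGGCtgggcgtaaa
Atp5o: gcccgggaaAAGATGGCcgcgcctgca
The lines fall on chromosome 7 from 3617386 to 3617621 (plus strand) for *Ndufa3*, chromosome 15 from 82354214 to 82354240 (minus strand) for *Ndufa6*, chromosome 6 from 126849098 to 126849124 (minus strand) for *Ndufa9*, chromosome 19 from 44555387 to 44555413 (minus strand) for *Ndufb8*, chromosome 3 from 51408916 to 51408942 (minus strand) for *Ndufc1*, chromosome 13 from 114388042 to 114388068 (minus strand) for *Ndufs4*, chromosome 13 from 73328432 to 73328458 (minus strand) for *Ndufs6*, chromosome 10 from 80249464 to 80249490 (plus strand) for *Ndufs7*, chromosome 1 from 171150564 to 171150590 (minus strand) for *Sdhc*, chromosome 9 from 108936707 to 108936733 (plus strand) for *Uqcrc1*, chromosome 5 from 145187232 to 145191527 (minus strand) for *Atp5j2*, chromosome 11 from 115418493 to 115419894 (minus strand) for *Atp5h* and chromosome 16 from 91931541 to 91931567 (minus strand) for *Atp5o*. The sequence of *Ndufa3*, *Atp5h* and *Atp5j2* runs across an intron, and the others are unbroken in GRCm38. The levels of the genes shown ran from 1083 per kilobase for *Ndufs4* to 7001 for *Atp5h*, within the range of the other subunits.

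**Figure D4:**
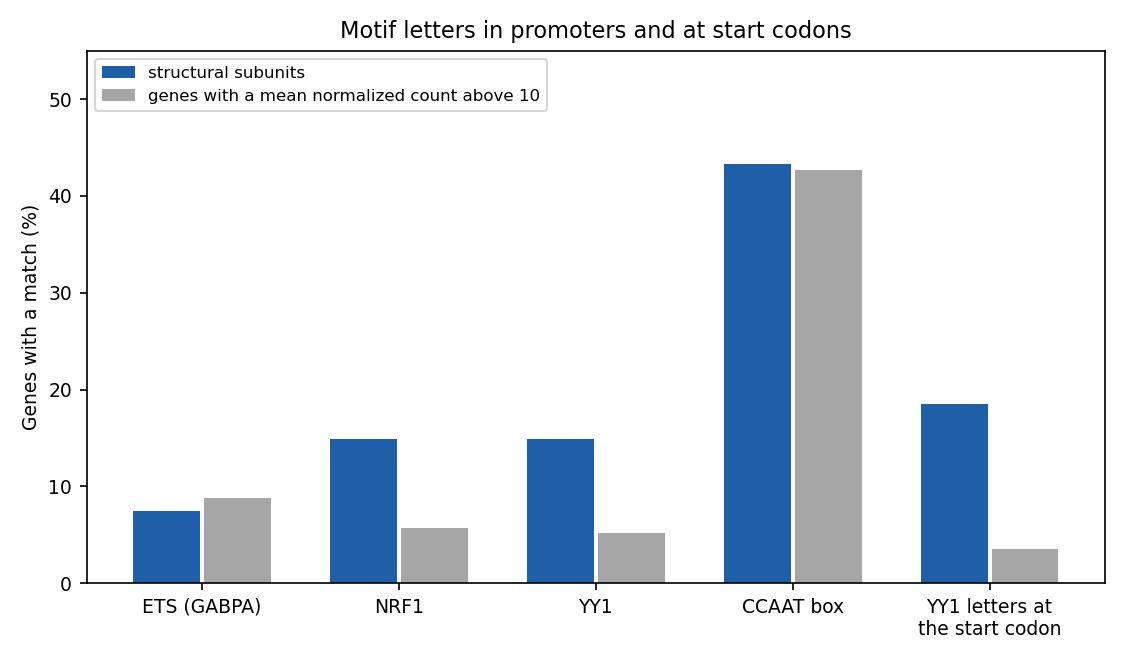
Bars give the percentage of genes whose promoter window holds the letters of each motif, and at the right the percentage of protein-coding transcripts with the YY1 letters at the start codon, for the structural subunits (blue) and for genes with a mean normalized count above 10 (grey). The blue bars are above the grey ones for NRF1 (14.9% beside 5.69%), YY1 (14.9% beside 5.17%) and the start codon (18.5% beside 3.54%), and close to them for ETS and CCAAT. Most promoter YY1 matches of the subunits are the same bases as their start codon matches, so those blue bars overlap.

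Other genes of the same pathway gave a frame for these levels. Of the electron carriers, cytochrome c (*Cycs*) was at 218 per kilobase, and *Etfa* and *Etfb*, the subunits of the electron transfer flavoprotein that takes electrons from fatty acid oxidation, were at 7840 and 9253. Of the *Etfb* transcript, 66.3% was shared with other genes, and of the *Cycs* transcript 26.1%. *Etfdh*, the separate enzyme that passes these electrons to ubiquinone, was at 5760. The 13 genes of the tricarboxylic acid cycle had a median of 2503 per kilobase, beside the 2218 of complex I. The assembly factors outside the naming rule had medians of 283 for complex I (7 genes), 177 for complex II (4), 297 for complex III (6), 319 for complex IV (20, of which *Pet117* was listed at 0) and 317 for complex V (3), all near the 263 of *Ndufaf1* to *Ndufaf7*. The 14 regulators of mitochondrial biogenesis, among them the coactivator gene *Ppargc1a* at 61.3, had a median of 173. *Gabpa* was at 334, *Yy1* at 236 and *Nrf1* at 173 per kilobase.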

How the data were processed

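Livers of 3 WT and 3 *Pai-1*+/- mice were sequenced by the authors as mRNA libraries with 75-base single-end reads, which STAR aligned to mm10, and the authors ran DESeq2. HOMER is also named in the submitters' processing notes. Versions, gene annotation and the handling of reads with several places are not given in the sources used here. The only deposited value used is a signal, the column of the authors' DESeq2 output that gives each gene's normalized count averaged over every library. The same table holds the authors' comparison of the genotypes (log2 fold change, its standard error, the Wald statistic, p-value and adjusted p-value), which was not used. The 6 columns of deposited counts per animal were not used either, because no label names the animal numbers that head them. The edgeR comparison of genotypes that had been designed could therefore not be run, and no totals per library, SDs or tests are given, so the depth behind each value is unknown.

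Symbols were matched to GENCODE M21 (GRCm38, the same build as mm10), directly or through RefSeq synonyms, for 24004 of 24421 genes and all 92 members. Each gene's length was that of its RefSeq-paired transcript with the longest coding part, or of the longest protein-coding transcript where no pair exists. Stretches of 75 bases were compared over all annotated transcripts on both strands, and this search and the motif search were checked on simulated sequences. Coding sequences were aligned with Biopython 1.88. The genes named with values include the highest and lowest structural subunits of each complex, all isoform family members and all of complex II. They also include all members with a mean normalized count of 10 or less and the rows that are no subunit. Others, such as core subunits and assembly factors of complex I and further genes of complex III, were named outside this rule. The members and lists were chosen with earlier results of these data known. Alternatives were another length, another set of members, the mean in place of the median, and another promoter background. A single member's values are not reported here.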

Additional observations from a re-analysis of the deposited data

How the results depend on the processing

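No paired analysis was possible because the columns of counts per animal carry no label of genotype or replicate. For the same reason the other size factors, the filter on low counts, DESeq2, and leaving out each replicate were not run.

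A value was taken as unchanged when it stayed within 1.5 times. Of 98 values under an alternative, 82 did so and 16 moved, but 24 of the 98 are shares of main complex IV isoforms between 99.39% and 100%, which could hardly move. With the coding length in place of the transcript length, the median level rose to 3833 per kilobase of coding sequence in complex I, 9321 in complex II, 10432 in complex III, 9201 in complex IV and 10659 in complex V, since coding parts are shorter than transcripts. Complex I had the lowest median of the 5 under all 6 alternatives, while the order of complexes II, III, IV and V changed with the length and the summary used. The median of complex IV rose to 6343 when only members with a mean count above 10 were kept. The share of *Atp5g1* among the genes of subunit c fell to 2.16% with the longest transcript and to 3.97% with the mean transcript length. Shares of lower complex IV isoforms moved too, that of *Cox6b2* from 0.569% to 0.337% with the mean transcript length, and that of *Cox7a1* from 0.756% to 0.469% and that of *Cox8b* from 0.131% to 0.0844% with the coding length. Of the 5 lowest structural subunits outside the lower isoforms, 5 shared coding stretches with another locus under the main and the coding length, and 4 under the longest and the mean transcript length. Among background promoters, taking genes with a mean count above 10 gave 8.84% for ETS, 5.69% for NRF1 and 5.17% for YY1. The RefSeq-paired length, the shared stretches, the lower isoforms' shares, the lowest subunits under each length and the search at the start codon were chosen after seeing the data. A mean over 6 libraries without their spread gives no error, so small differences between genes are not read.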
